A study of Mus musculus with 6 samples.

Results

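The transcription factor p53, its regulators and its direct targets outside the BCL2 family were followed in mouse lung AT2 (alveolar type II epithelial) cells, which make surfactant. The genes were taken by symbol from a set of 32 names, and all 32 had a row among the 52550 genes of the deposited table. In unstressed cells p53 protein is kept low by MDM2, a ubiquitin ligase that marks it for destruction, and by the related protein MDM4. DNA damage, ribosomal stress and other insults release p53, which then switches on genes that stop the cell cycle, repair DNA, sensitise the cell to death or feed back on p53 itself. In lung epithelium p53 signalling is known from injury responses, where it accompanies cell cycle arrest of AT2 cells.

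Of the 6 libraries, 3 were labelled Grp78 knockout and came from C57BL/6 mice with a tamoxifen-inducible Cre recombinase knocked into the surfactant protein C gene (Sftpc+/creERT2) and floxed Grp78 alleles (Grp78f/f), given tamoxifen ("with Tmx"). The other 3 were control libraries from mice of the same genotype "without Tmx", so tamoxifen and the deletion cannot be told apart. All 6 labels, controls included, also state 10 days after a tamoxifen injection, which conflicts with the controls' genotype label. The labels state no ages. Cells negative for CD45 and positive for EPCAM were sorted with magnetic beads from dispase-digested lungs, a gate that other lung epithelial cells also pass. Nothing says that the libraries came from separate animals, so p-values measure only the spread between these libraries, which may be technical.

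Library totals ran from 110770711 to 128129307 counts in libraries labelled knockout, against 131235053 to 149520306 counts in controls. Hspa5, which encodes Grp78, had 9262, 9180 and 3809 CPM (counts scaled to a common library size with TMM factors) in libraries 1, 2 and 3 labelled knockout, against 1355, 1289 and 925 CPM in controls 1, 2 and 3. That is higher, against the direction the label names, and counts over the whole gene do not show whether floxed exons were lost. Every direction given here is therefore between libraries as labelled. Both libraries numbered 3 stood apart from the others of their group (chi-square per gene on halved counts 147 to 179 against library 3 labelled knockout and 8.52 between libraries 1 and 2, and 84.8 to 123 against control 3 and 21.5 between controls 1 and 2). All 12 AT2 markers passed the test described below as lower (100%, against 18.8% of all genes tested). Their summed levels were 52956 to 69597 CPM in libraries labelled knockout against 142753 to 166516 CPM in controls.

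Of the 32 p53 genes, 21 passed the test as higher in libraries labelled knockout, 5 as lower and 6 not at all (edgeR quasi-likelihood test, Benjamini-Hochberg adjusted p under 0.05 over 18849 genes). Among all genes tested 36.8% were called, 18.0% higher and 18.8% lower, against 65.6% higher and 15.6% lower among the p53 genes. The p53 genes were chosen with earlier results of these data known, so part of this difference may follow from that choice. The median log2 fold, libraries labelled knockout over controls, was 0.82 over the p53 genes and 0.02 over all genes tested. Of the 21 genes called higher, 13 rose by 2-fold or more (40.6% of the set, against 8.23% of all genes tested), and none of the 5 genes called lower fell by as much (4.49% of all genes tested did). All 32 passed the filter on low counts, and the lowest count of any of them in any library was 58. In these bulk libraries a change in the number of expressing cells and a change in RNA per cell cannot be told apart.

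**Figure D1:**
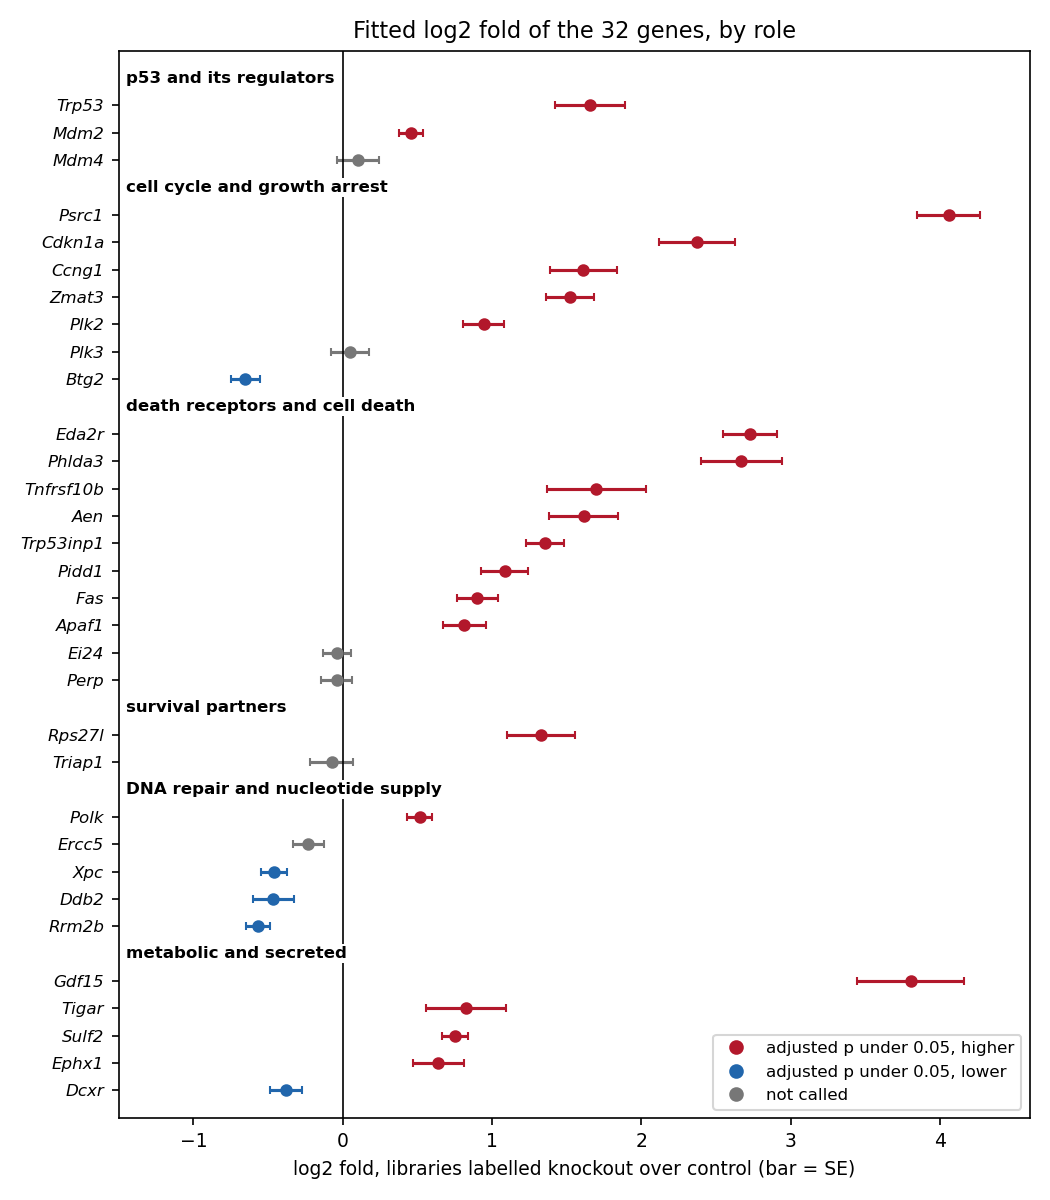
Fitted log2 fold of each p53 gene in libraries labelled knockout over controls, with its standard error (SE), grouped by role; red is called higher, blue called lower, grey not called. Folds run from -0.65 for Btg2 to 4.06 for Psrc1, and the calls of lower expression lie among the repair genes, Btg2 and Dcxr.

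The promoters of the genes were searched for the p53 half-site, the 10-base consensus that p53 binds in pairs and that reads the same on both strands. Windows of 300 bases (250 before to 50 after a start; RefSeq, GRCm38.p6) were at hand for 25 of the 32 genes. An exact half-site lay in 8 of these 25 genes, of which 7 were called higher (Aen, Ccng1, Cdkn1a, Mdm2, Polk, Rps27l and Trp53) and 1, Ei24, was not called. By window, 27.3% of the 33 windows of these genes held one, against 8.36% of all 32851 windows. The 1 half-site of Aen lay in 2 overlapping windows and counts in both. The genes were picked as p53 and its direct targets, so more p53 sites than over all windows may follow from that choice alone. Of the 17 matched genes without a half-site in the window, 11 were called higher and 2 lower. Among all 32 p53 genes 65.6% were called higher and 15.6% lower, against 18.0% and 18.8% of all genes tested. Whether a half-site goes with the call was not tested. A full site (2 half-sites at most 3 bases apart, with 4 core letters of each kept and at most 2 mismatches in all) lay in 6.06% of the windows of these genes, against 0.603% of all windows. The full sites belonged to Cdkn1a and Rps27l, shown first, and half-sites of 4 further genes called higher follow, with the matched bases in capitals.
Cdkn1a (chr17:29090908-29090967, plus strand, before the upstream one of 2 starts): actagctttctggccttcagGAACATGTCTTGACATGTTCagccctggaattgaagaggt
Rps27l (chr9:66946276-66946335, plus strand, before the downstream one of 2 starts): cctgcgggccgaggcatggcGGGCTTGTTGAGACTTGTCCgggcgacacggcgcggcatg
Trp53 (chr11:69580264-69580313, plus strand): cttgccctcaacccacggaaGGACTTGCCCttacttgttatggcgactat
Mdm2 (chr10:117710915-117710964, minus strand): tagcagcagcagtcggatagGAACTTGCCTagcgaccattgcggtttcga
Ccng1 (chr11:40755442-40755491, minus strand): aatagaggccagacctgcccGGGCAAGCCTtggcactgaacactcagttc
Aen (chr7:78895917-78895966, plus strand): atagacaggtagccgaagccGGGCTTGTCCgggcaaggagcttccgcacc
The Cdkn1a site began 51 bases before its start and had both half-sites directly joined, with 1 mismatch to the consensus. The Rps27l site began 117 bases before its start, again joined and with 1 mismatch. A match describes these letters and does not show binding.

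The RNAs of p53 itself and of its ligase were both higher, and protein was not measured here. Trp53 (chromosome 11, 69580359 to 69591873, plus strand, mm10) was at 68.2, 68.1 and 35.7 CPM in libraries 1, 2 and 3 labelled knockout, against 17.5, 18.6 and 18.6 CPM in controls. The groups did not overlap, and library 3 labelled knockout lay nearer to the controls than to the other libraries labelled knockout. Its log2 fold was 1.66 ± 0.236 (SE; adjusted p = 0.00245 by edgeR), a 3.15-fold rise. Mdm2 (chromosome 10, 117688875 to 117710758, minus strand), a target as well as the ligase of p53, was at 102, 103 and 103 CPM in libraries labelled knockout, against 70.5, 76.5 and 77.3 CPM in controls. Here library 3 labelled knockout stood with the others, and the rise was smaller, at a log2 fold of 0.46 ± 0.0796 (SE; adjusted p = 0.0049 by edgeR). Mdm4, which binds p53 and holds back its activity as a transcription factor, was at 38.1, 40.5 and 31.3 CPM in libraries labelled knockout, against 28.4, 36.0 and 38.0 CPM in controls. Its groups overlapped and it was not called (log2 fold 0.10 ± 0.142 SE; adjusted p = 0.604 by edgeR).

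**Figure D2:**
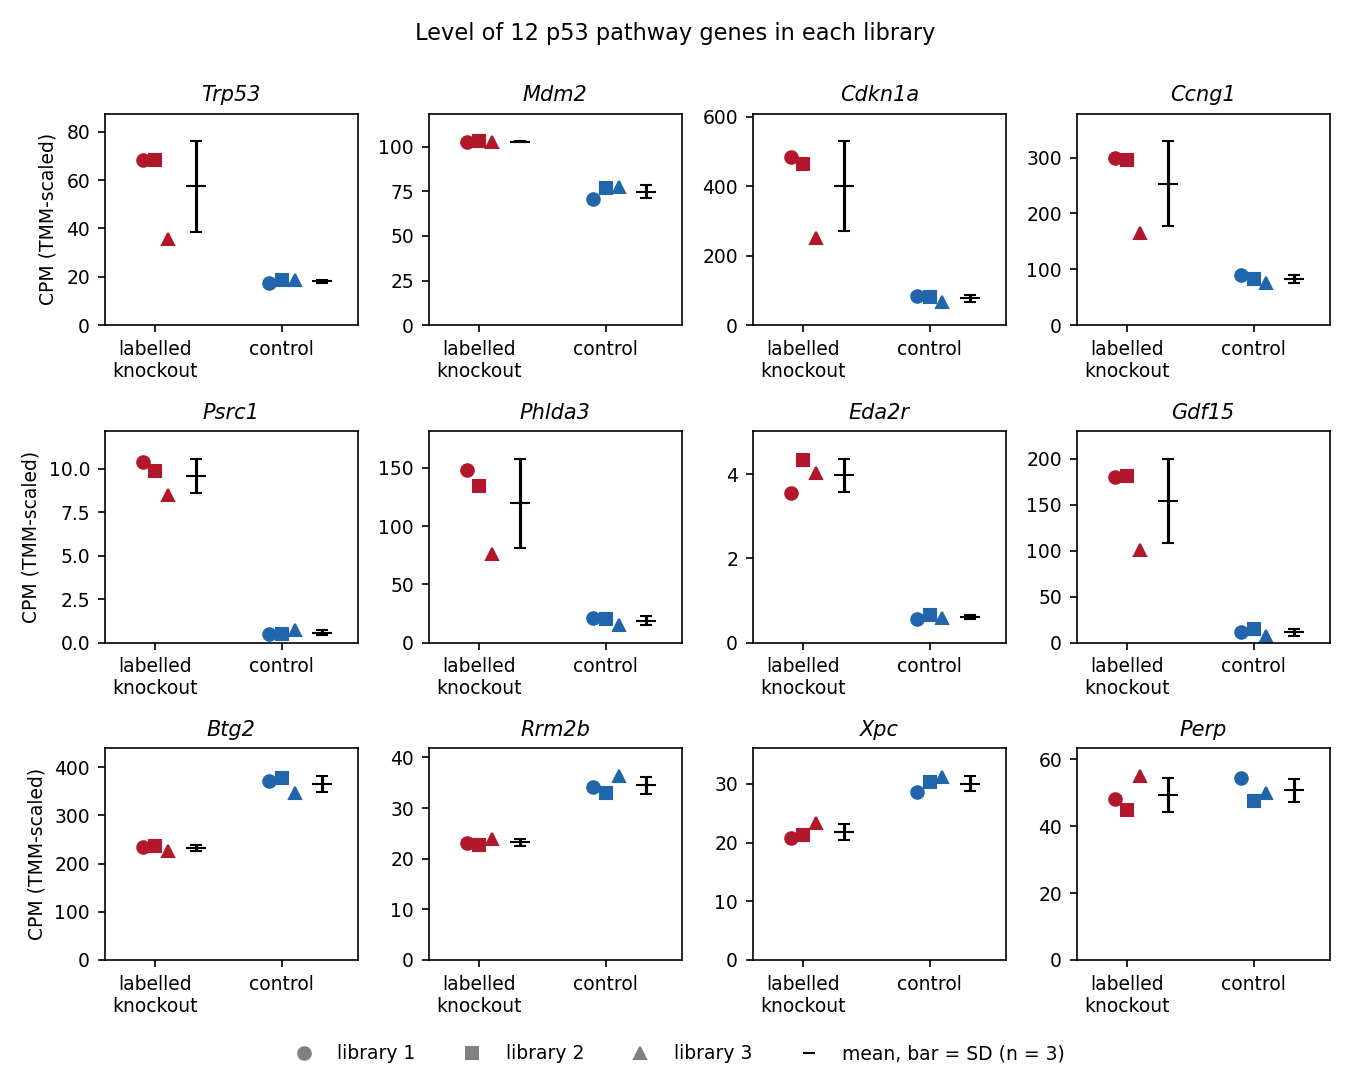
Level of 12 of the genes in each library, in TMM-scaled CPM from 0, with circles, squares and triangles for libraries 1, 2 and 3 and the mean with its SD beside them (n = 3 per group). Library 3 labelled knockout lies below the other libraries labelled knockout for Trp53, Cdkn1a, Ccng1, Phlda3 and Gdf15 but with them for Mdm2, Eda2r, Btg2, Rrm2b and Xpc.

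Of 7 genes of cell cycle and growth arrest, 5 rose, 1 fell and 1 was not called. The shares were 71.4% higher and 14.3% lower, against 18.0% and 18.8% of all genes tested. Cdkn1a (chromosome 17, 29090976 to 29100727, plus strand), whose product p21 inhibits cyclin-dependent kinases, was at 485, 466 and 251 CPM in libraries 1, 2 and 3 labelled knockout, against 84.9, 81.6 and 66.0 CPM in controls. Every library labelled knockout lay above every control, with library 3 the lowest of each group. The log2 fold was 2.37 ± 0.256 (SE; adjusted p = 0.000931 by edgeR). Psrc1 (chromosome 3, 108383839 to 108388231, plus strand), which encodes a microtubule-binding protein of the mitotic spindle, reached 10.4, 9.87 and 8.48 CPM in libraries labelled knockout, against 0.509, 0.480 and 0.735 CPM in controls. This was the largest fold among the 32 genes, 16.6-fold (log2 fold 4.06 ± 0.208 SE; adjusted p = 0.000155 by edgeR). Ccng1, whose product cyclin G1 recruits a phosphatase to MDM2, was at 298, 296 and 165 CPM in libraries labelled knockout, against 89.8, 83.1 and 75.9 CPM in controls (log2 fold 1.61 ± 0.224 SE; adjusted p = 0.00223 by edgeR).

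Zmat3, which encodes a zinc finger RNA-binding protein, was at 52.8, 59.4 and 37.5 CPM in libraries labelled knockout, against 17.3, 17.6 and 17.3 CPM in controls. The controls were nearly equal, with an SD of 0.177 CPM (n = 3), and the log2 fold was 1.52 ± 0.163 (SE; adjusted p = 0.000914 by edgeR). Plk2, a polo-like kinase gene, averaged 76.4 ± 11.9 CPM in libraries labelled knockout and 39.8 ± 4.16 CPM in controls (SD, n = 3 each; log2 fold 0.94, edgeR adjusted p = 0.00258). Its relative Plk3 averaged 6.52 ± 0.354 CPM in libraries labelled knockout and 6.31 ± 0.692 CPM in controls (SD, n = 3 each), with overlapping groups (log2 fold 0.05 ± 0.125 SE; adjusted p = 0.787 by edgeR). Btg2 (chromosome 1, 134075170 to 134079120, minus strand), an antiproliferative gene whose product recruits the mRNA deadenylation machinery, moved the other way. It was at 235, 236 and 225 CPM in libraries labelled knockout, against 371, 378 and 346 CPM in controls, with the groups well apart (log2 fold -0.65 ± 0.0969 SE; adjusted p = 0.00281 by edgeR). A list of 10 immediate early genes such as Fos, Jun and Egr1, which does not hold Btg2, was lower in the same libraries. Of these 9 were called lower (90%, against 18.8% of all genes tested), at a median log2 fold of -0.70 and summed levels of 3848 to 4600.1 CPM in libraries labelled knockout against 6456 to 7084 CPM in controls. Their part in the Btg2 result was not tested.

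Genes of death receptors and cell death went mostly 1 way. Of 10, 8 were higher (80%, against 18.0% of all genes tested), none lower (against 18.8%) and 2 not called by edgeR. At an unadjusted p under 0.05 the count lower was 0 as well, and neither of the 2 was called by DESeq2 or limma-voom. Among the receptors, Eda2r (chromosome X, 97333840 to 97377216, minus strand), the receptor for ectodysplasin A2, was at 3.55, 4.34 and 4.04 CPM in libraries labelled knockout, against 0.561, 0.658 and 0.582 CPM in controls. The rise was 6.61-fold (log2 fold 2.72 ± 0.182 SE; adjusted p = 0.000342 by edgeR), with all libraries labelled knockout at a like level. Tnfrsf10b, the mouse receptor for the death ligand TRAIL, was at 13.2, 14.5 and 9.60 CPM in libraries labelled knockout, against 4.53, 4.94 and 2.01 CPM in controls. Library 3 was the lowest of both groups for this gene (log2 fold 1.70 ± 0.331 SE; adjusted p = 0.00769 by edgeR). Fas, the receptor for Fas ligand, averaged 12.6 ± 1.2 CPM in libraries labelled knockout and 6.73 ± 0.961 CPM in controls (SD, n = 3 each; log2 fold 0.90, edgeR adjusted p = 0.00312).

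Phlda3 (chromosome 1, 135766119 to 135769136, plus strand), which encodes a repressor of the survival kinase AKT, was at 148, 135 and 76.0 CPM in libraries 1, 2 and 3 labelled knockout, against 21.5, 20.3 and 14.7 CPM in controls. It rose 6.36-fold (log2 fold 2.67 ± 0.271 SE; adjusted p = 0.000849 by edgeR). Aen, an apoptosis-enhancing nuclease gene, averaged 48.6 ± 13.9 CPM in libraries labelled knockout and 15.9 ± 2.66 CPM in controls (SD, n = 3 each; log2 fold 1.61, edgeR adjusted p = 0.0025). Trp53inp1, which encodes a nuclear protein that promotes p53 activity and autophagy, averaged 167 ± 10.6 CPM in libraries labelled knockout and 65.2 ± 9.97 CPM in controls (log2 fold 1.35, edgeR adjusted p = 0.000657). The apoptosome gene Apaf1 and Pidd1, whose product assembles the caspase-activating PIDDosome, were both low and both higher. Apaf1 averaged 13.0 ± 0.768 CPM in libraries labelled knockout and 7.40 ± 1.36 CPM in controls (log2 fold 0.81, edgeR adjusted p = 0.00542). Pidd1 averaged 3.14 ± 0.0803 CPM in libraries labelled knockout and 1.48 ± 0.0904 CPM in controls (log2 fold 1.08, edgeR adjusted p = 0.00256). Perp, a desmosome-associated membrane protein gene, and Ei24, which encodes an ER membrane protein, both had a log2 fold of -0.04 (SE 0.104 and 0.0948, edgeR adjusted p = 0.784 and 0.767), with overlapping groups, and the sign of both turned positive with library-size scaling and with upper-quartile factors.

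Of a pair of small p53 targets linked to cell survival, 1 rose (50%, against 18.0% of all genes tested). Rps27l (chromosome 9, 66946086 to 66949516, plus strand), a close relative of the ribosomal protein gene Rps27, was at 208, 200 and 120 CPM in libraries 1, 2 and 3 labelled knockout, against 83.4, 68.4 and 57.9 CPM in controls (log2 fold 1.33 ± 0.228 SE; adjusted p = 0.00461 by edgeR). Of its 1011 transcript windows of 150 bases, the read length, none occurred in a transcript of another gene in GENCODE M21. Triap1, which encodes a mitochondrial lipid-transfer partner, averaged 21.7 ± 2.81 CPM in libraries labelled knockout and 22.8 ± 3.39 CPM in controls (SD, n = 3 each). It was not called (log2 fold -0.08 ± 0.143 SE; adjusted p = 0.704 by edgeR), and its sign was positive with library-size scaling and with upper-quartile factors.

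Among 5 genes of DNA repair and nucleotide supply, 3 fell, 1 rose and 1 was not called. The share lower was 60%, against 18.8% of all genes tested. The share higher was 20%, near the 18.0% of all genes tested. With library-size scaling the calls of Xpc and Ddb2 ended (adjusted p = 0.201 and 0.347 by edgeR), while that of Rrm2b lay just inside the threshold (adjusted p = 0.04996 by edgeR). The Ddb2 call also ended with upper-quartile factors and in 5 of the 6 fits that left out 1 library. Rrm2b (chromosome 15, 37923952 to 37961318, minus strand), the p53-inducible small subunit of ribonucleotide reductase, was at 23.1, 22.6 and 24.0 CPM in libraries labelled knockout, against 34.1, 32.9 and 36.3 CPM in controls (log2 fold -0.57 ± 0.0819 SE; adjusted p = 0.0025 by edgeR). Xpc, whose product recognises damaged DNA for nucleotide excision repair, was at 20.7, 21.2 and 23.4 CPM in libraries labelled knockout, against 28.6, 30.3 and 31.2 CPM in controls. Both sets of libraries were tight and did not overlap, and the log2 fold was -0.46 ± 0.0884 (SE; adjusted p = 0.00697 by edgeR). Ddb2, a damage sensor for ultraviolet lesions, averaged 3.98 ± 0.296 CPM in libraries labelled knockout and 5.50 ± 0.543 CPM in controls (log2 fold -0.46 ± 0.136 SE; adjusted p = 0.0321 by edgeR). Of the exon bases of Rrm2b 8.04% overlap Gm49085 on the opposite strand, and of those of Ddb2 23.8% overlap exons of Acp2 on the opposite strand, and the counts cannot be assigned to a strand. Ercc5, a repair endonuclease gene, had a log2 fold of -0.23 ± 0.106 (SE; adjusted p = 0.123 by edgeR), and a log2 fold of 0.02 when scaled by library size. Polk, a gene for a DNA polymerase that copies past lesions, was at 23.8, 24.7 and 24.7 CPM in libraries labelled knockout, against 18.1, 16.3 and 16.8 CPM in controls (log2 fold 0.51 ± 0.084 SE; adjusted p = 0.00391 by edgeR).

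Of 5 genes of metabolism or secreted products, 4 rose and 1 fell. The share higher was 80%, against 18.0% of all genes tested. The share lower was 20%, near the 18.8% of all genes tested. Gdf15 encodes a secreted member of the TGF-beta superfamily that is also known as a target of the stress factors ATF4 and CHOP. It was at 181, 181 and 101 CPM in libraries 1, 2 and 3 labelled knockout, against 11.7, 14.7 and 6.78 CPM in controls (log2 fold 3.80 ± 0.359 SE; adjusted p = 0.000815 by edgeR). Library 3 was the lowest in both groups, and the groups were far apart. Sulf2, an extracellular sulfatase gene that edits heparan sulfate, was at 50.0, 51.8 and 48.3 CPM in libraries labelled knockout, against 27.9, 29.1 and 32.1 CPM in controls (log2 fold 0.75 ± 0.0875 SE; adjusted p = 0.00118 by edgeR). Ephx1, the microsomal epoxide hydrolase gene, averaged 300.1 ± 51.6 CPM in libraries labelled knockout and 193 ± 31.1 CPM in controls (log2 fold 0.64, edgeR adjusted p = 0.0241). Tigar, which encodes a phosphatase that restrains glycolysis, was at 31.9, 32.6 and 15.8 CPM in libraries labelled knockout, against 16.7, 16.0 and 12.7 CPM in controls. It was the 1 called gene whose groups overlapped, since library 3 labelled knockout lay below controls 1 and 2 (log2 fold 0.83 ± 0.269 SE; adjusted p = 0.0463 by edgeR). Dcxr, a dicarbonyl and xylulose reductase gene, was at 184, 167 and 177 CPM in libraries labelled knockout, against 256, 222 and 211 CPM in controls (log2 fold -0.38 ± 0.109 SE; adjusted p = 0.029 by edgeR).

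Scaled by exon length (RPKM), the order of levels among the genes differed between the groups. In the libraries labelled knockout the mean levels ran from 215 RPKM for Rps27l, 154 for Ephx1, 154 for Dcxr and 113 for Cdkn1a down to 0.675 for Eda2r. In controls Dcxr led with 200.4 RPKM, followed by Btg2 with 133, Ephx1 with 98.7 and Rps27l with 85.6. Cdkn1a was at 21.8 RPKM in controls. Gdf15 was at 83.3 RPKM in the libraries labelled knockout, close to Btg2 with 84.6, against 5.97 RPKM in controls. Trp53 stood at 14.2 RPKM in the libraries labelled knockout and 4.50 in controls, below Mdm2 with 20.2 and 14.7.

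The rise was smaller in library 3 labelled knockout for most genes, which was seen by setting each library against the control mean. The median of the 21 genes called higher lay 1.58, 1.52 and 0.95 above the control mean (log2 of CPM + 0.5) in libraries 1, 2 and 3 labelled knockout. Of these 21 genes, 17 had their lowest value among the libraries labelled knockout in library 3. How many of all genes called higher did so was not counted. Hspa5, outside the set, was also lowest there, at 3809 CPM against 9262 and 9180 CPM in libraries 1 and 2. For the 5 genes called lower the medians against the control mean were -0.52, -0.51 and -0.37. Within each replicate number, the log2 ratio of the library labelled knockout to the control of that number had the called direction in all 3 numbers for all 26 called genes. For every called gene but Tigar the groups did not overlap, which fixed this outcome whichever libraries are set together. No label says what the numbers mark. Over the whole set 28 of 32 genes had 1 direction in all 3 numbers, against 70.2% of all genes tested. Cdkn1a was 5.68-fold higher at number 1, 5.68-fold at number 2 and 3.79-fold at number 3. For Gdf15 the same ratios were 14.9, 11.9 and 14.0, and for Trp53 3.83, 3.60 and 1.90. The groups did not overlap for 20 genes that were higher and 5 that were lower, against 25.0% and 26.6% of all genes tested. Without library 3 labelled knockout 21 genes were called higher and 5 lower, and without both libraries numbered 3 these counts were 22 and 5, Mdm4 being the added gene. Calls rose over all genes too, to 44.4% and 56% in these fits, against 36.8% in the main test.

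**Figure D3:**
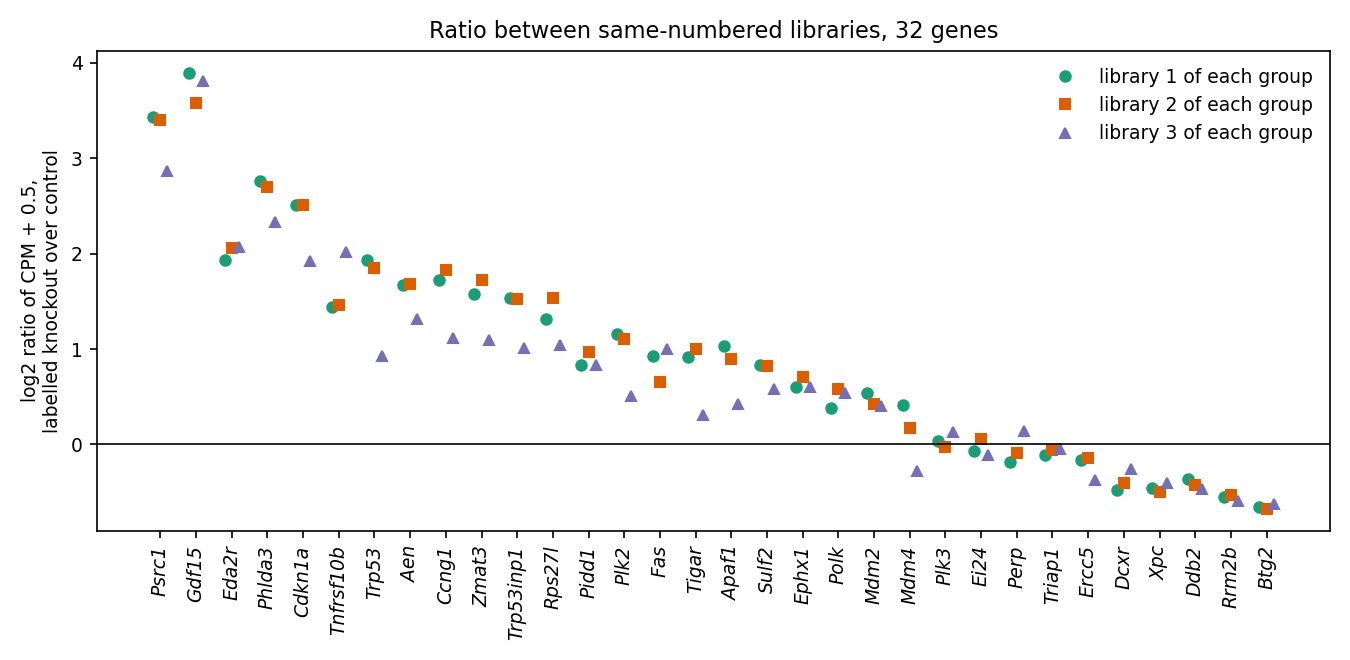
Log2 ratio of CPM + 0.5 between the library labelled knockout and the control of the same number, for each of the 32 genes in order of fitted fold; the added 0.5 shrinks the ratios of low genes such as Psrc1 and Eda2r. Number 3 (triangles) lies nearest to 0 for 15 of the 21 genes called higher, while for Tnfrsf10b, Fas and, by little, Eda2r it is the highest. The same share over all genes called higher was not counted.

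Markers of other cells were read against the 18.0% of all genes called higher and 18.8% called lower. Of 15 fibroblast and smooth muscle markers 13 were called higher (86.7%), with sums of 1260.4 to 1380.2 CPM in libraries labelled knockout against 253 to 612 CPM in controls, where control 3 was the highest. Of 8 mesothelial markers 7 were higher (87.5%), with sums of 478 to 623 CPM in libraries labelled knockout against 276 to 325 CPM in controls. Krt19 made up 62.3% of the mesothelial list. Without Krt19 the sums were 198 to 229 CPM in libraries labelled knockout against 113 to 126 CPM in controls. Of 11 airway markers 4 were higher (36.4%), with sums of 32474 to 36062 CPM in libraries labelled knockout against 31039 to 57025 CPM in controls. Scgb1a1 made up 84% of this list. It was at 27830, 30127 and 26914 CPM in libraries 1, 2 and 3 labelled knockout, above the AT2 marker Sftpc at 15506, 14460 and 18606 CPM. In controls Scgb1a1 was at 48330, 46148 and 26136 CPM and Sftpc at 54845, 47646 and 43706 CPM. Of 10 endothelial markers 1 was higher, a share below that of all genes tested. Of 8 type I alveolar markers 1 was higher, also below that share, and 4 were lower. Of 17 leukocyte markers tested, 2 were higher and 1, Lyz1, was lower (11.8% and 5.88%). Lyz1 made up 97.9% of the list. Without it the others summed to 22.4 to 186 CPM in libraries labelled knockout, highest in library 3, and 18.1 to 34.1 CPM in controls. Ptprc, which encodes CD45, was at 0.963, 1.29 and 11.0 CPM in libraries 1, 2 and 3 labelled knockout, against 1.38, 1.05 and 2.07 CPM in controls. No marker was at 0 in every library. What these cells contributed to the p53 genes was not tested.

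Other p53 targets, a list of 46 that includes sestrins and BCL2 family genes, moved in both directions. Of the 45 tested, 14 were higher and 7 lower (31.1% and 15.6%, against 18.0% and 18.8% of all genes tested), with a median log2 fold of 0.09. With the replicate number as a block 15 were higher and 11 lower, and with library-size scaling 19 were higher and 4 lower. Over all genes tested 44.6% were called with the block, against 36.8% in the main test. Library-size scaling called 6218 of all 18849 genes higher and 1343 lower, against 3391 and 3547 in the main test. The Ras-family gene Rap2b rose by a log2 fold of 1.39 ± 0.112 (SE; adjusted p = 0.00046 by edgeR), Gtse1, which encodes a microtubule-associated protein of G2 and S phase that restrains p53, by 2.77 ± 0.32 (SE; adjusted p = 0.00116 by edgeR), and Tsku, a secreted proteoglycan gene, by 0.75 (edgeR adjusted p = 0.00152). Among those lower, Dram1, a lysosomal membrane protein gene of p53-driven autophagy, was at 538, 539 and 803 CPM in libraries 1, 2 and 3 labelled knockout, against 1603, 1511 and 1637 CPM in controls (log2 fold -1.34 ± 0.184 SE; adjusted p = 0.00211 by edgeR). Cdip1, a pro-apoptotic p53 target, had a log2 fold of -0.64 ± 0.08 (SE; adjusted p = 0.00147 by edgeR), and Tgfa, a ligand of the EGF receptor, one of -0.73 ± 0.115 (SE; adjusted p = 0.00344 by edgeR). Chosen after their values were seen, the apoptosis gene Bax and the growth arrest gene Gadd45a rose by log2 folds of 2.03 and 1.47 (edgeR adjusted p = 0.00172 and 0.0122).

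Upstream regulators of p53 were called in both directions. Of 21 tested, 4 were higher and 6 lower (19.0% and 28.6%, against 18.0% and 18.8% of all genes tested, so the share higher was near the background). The counts higher and lower were 8 and 8 under the replicate block, 9 and 1 with library-size scaling, and 7 and 5 with upper-quartile factors. Over all 18849 genes tested they were 6218 and 1343 with library-size scaling and 4091 and 2825 with upper-quartile factors. The block called 44.6% of all genes. Higher were the checkpoint kinase genes Chek1 (log2 fold 1.85 ± 0.234 SE; adjusted p = 0.00154 by edgeR), Chek2 (0.75, edgeR adjusted p = 0.00385) and Atr (0.53, edgeR adjusted p = 0.00323), together with Npm1, a nucleolar protein that binds MDM2 (1.21, edgeR adjusted p = 0.00505). Lower were Hipk2, a kinase that phosphorylates p53 (log2 fold -1.14 ± 0.2 SE; adjusted p = 0.00501 by edgeR), the p53 deacetylase gene Sirt1 (-0.46, edgeR adjusted p = 0.00545) and the acetyltransferase gene Crebbp (-0.82, edgeR adjusted p = 0.0114). The Sirt1 and Crebbp calls ended with library-size scaling.

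Cell cycle genes that p53 is known to repress through p21 were mostly higher alongside Cdkn1a. Of 16 such genes, 13 were called higher and none lower (81.2% higher, against 18.0% of all genes tested), with a median log2 fold of 1.98. None was lower at an unadjusted p under 0.05, with DESeq2 or limma-voom, or with any library left out. The count higher was 9 to 15 with 1 library left out, lowest without control 1. Over all genes 1684 to 4242 were called higher in the fits with 1 library left out. Their summed level was 188 to 236 CPM in libraries labelled knockout against 48.5 to 115 CPM in controls, where control 3 was the highest. The fibroblast and smooth muscle markers moved with them, at summed levels of 1260.4, 1354 and 1380.2 CPM in libraries 1, 2 and 3 labelled knockout against 257, 253 and 612 CPM in controls, and their part in this result was not tested. Rrm2, the cell cycle subunit of ribonucleotide reductase, was at 19.9, 20.3 and 22.9 CPM in libraries labelled knockout, against 3.12, 2.68 and 7.24 CPM in controls (log2 fold 2.28 ± 0.367 SE; adjusted p = 0.00447 by edgeR). The mitotic kinase gene Plk1 rose by a log2 fold of 1.94 ± 0.33 (SE; adjusted p = 0.0046 by edgeR) and the S-phase transcription factor gene E2f1 by 1.52 ± 0.262 (SE; adjusted p = 0.00479 by edgeR). Foxm1, Mki67 and Bub1 were not called (log2 folds 1.29, 0.73 and -0.10, edgeR adjusted p = 0.057, 0.468 and 0.617). Mki67 was at 6.86, 12.7 and 18.8 CPM in libraries labelled knockout, against 2.35, 3.81 and 17.0 CPM in controls 1, 2 and 3.

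**Figure D4:**
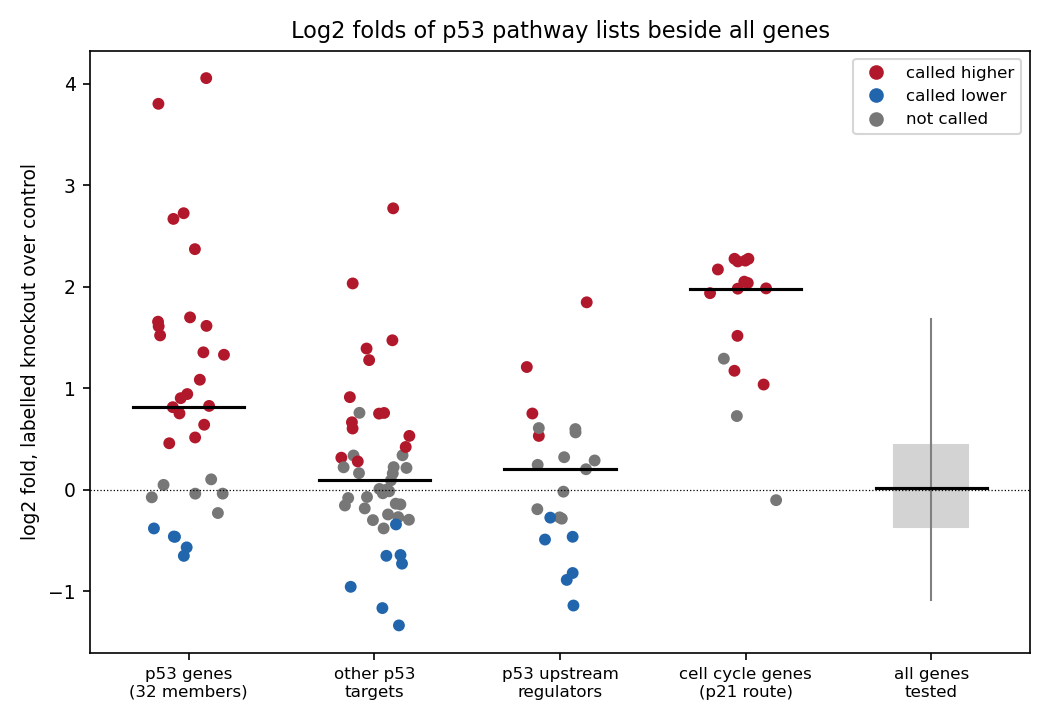
Fitted log2 folds of the tested genes of each list, libraries labelled knockout over controls, 1 point per gene with a black line at the median; the bar at the right gives all genes tested, with the box from the 25th to the 75th and the line from the 5th to the 95th percentile. The medians are 0.82 for the p53 genes, 0.09 for other targets, 0.20 for upstream regulators, 1.98 for the cell cycle genes and 0.02 for all genes tested.

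Scaling bore on the calls of lower expression. With scaling by library size alone the median of all genes moved by 0.26 on the log2 scale. The 26 calls among the p53 genes became 23, of which 21 were higher and 2 lower (91.3% higher, against 80.8% with TMM). Over all genes the share of calls that were higher moved as well, to 82.2% against 48.9% with TMM. Btg2 and Rrm2b were still called lower, while Xpc, Ddb2 and Dcxr were not (adjusted p = 0.327 for Dcxr by edgeR). With upper-quartile factors the calls of Ddb2 and Dcxr ended (edgeR adjusted p = 0.0649 and 0.0534). The Tigar call ended with limma-voom (adjusted p = 0.0749) and, with edgeR, when no filter on low counts was applied (adjusted p = 0.113). The calls of Ddb2 and Tigar also ended when any library but library 3 labelled knockout was left out (edgeR adjusted p up to 0.125 and 0.152). That of Dcxr ended without library 1 or 2 labelled knockout or control 1 or 2 (up to 0.118), and that of Ephx1 without library 1 or 2 labelled knockout or control 2 or 3 (edgeR adjusted p up to 0.0879).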

How the data were processed

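The deposited table holds the authors' raw counts per gene symbol for 6 libraries (NEBNext Ultra kit, paired reads of 150 bases, per the labels' protocols). The submitters' processing notes name the build mm10 and edgeR 3.7, and no source used here gives an aligner, a counting program, an annotation or a strand setting. Counts of 2 outnumbered counts of 1 by a ratio of 1.63 to 1.76 in each library, so counting error may be larger than the counts imply.

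Each gene was tested with edgeR 4.0.16 under R 4.3.3, with group as the only term: filterByExpr kept 18849 genes, totals were scaled by TMM, and the robust quasi-likelihood F statistic gave p-values that were adjusted by Benjamini-Hochberg and called at 0.05. Standard errors were taken as the absolute log2 fold over the root of F, and the common coefficient of variation between libraries came to 22.3%. CPM values use the TMM-scaled totals. Gene positions and exon lengths are from GENCODE M21 on mm10. The tests were tried on simulated counts with known changes.

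The members and lists were chosen with earlier results of these data known. Every member is described; from each other p53 list the text names the 3 called genes of lowest adjusted p in each direction, and all of them where a direction has 5 or fewer. Cop1 was counted under its older symbol Rfwd2, and Itgam had no row under that symbol in the deposited table.

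Same-numbered libraries deviated together from their group means (correlations 0.174, 0.147 and 0.281), so the numbers were treated as pairing in 1 alternative, although no label says what they mark. Within a group every pair of libraries differed beyond sampling noise, at a chi-square of 8.52 to 179 per gene on halved counts. There were 14 alternatives: DESeq2 1.42.0, limma-voom (limma 3.58.1), library-size and upper-quartile scaling, no filter, a filter at 5 CPM in 3 libraries, the replicate block, each library left out, and both libraries numbered 3 left out.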

Additional observations from a re-analysis of the deposited data

How the results depend on the processing

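Of the 26 p53 genes called, 21 kept their call in every alternative in which they were tested; the exceptions were Xpc, Ddb2, Tigar, Dcxr and Ephx1. With the replicate block 26 p53 genes were called, 21 higher and 5 lower, and no call among them changed. Of the other targets 11 were then lower, and of the upstream regulators 16 were called, 8 of them higher. Of all genes 44.6% were called with the block, against 36.8% in the main test. Library-size scaling gave 6218 higher and 1343 lower calls over all genes. It left 2 p53 genes and 4 other targets lower, made 9 upstream regulators higher and 1 lower, and gave a median p53 log2 fold of 1.07. Upper-quartile factors left 3 p53 genes lower, made 7 upstream regulators higher and gave a median of 0.89. Over all genes they gave 4091 higher and 2825 lower calls. Without both libraries numbered 3, 10581 genes were called, 5355 of them higher; 34 other targets were called, 14 lower, and 16 upstream regulators, 8 higher, and the p53 median was 0.92. With 1 library left out, 3706 to 8548 genes were called (1684 to 4242 higher, 1881 to 4306 lower); 22 to 26 p53 genes were called, 3 to 5 of them lower, at a median of 0.75 to 0.90; 9 to 17 other targets and 4 to 7 upstream regulators were higher. The fewest genes were called without control 2 (3706), and also without library 1 (3981) or 2 (3779) labelled knockout; 3 p53 genes were lower without library 1 or 2 labelled knockout or control 1 or 2, 9 other targets were higher without library 2 labelled knockout or control 2, and 7 regulators without library 3 labelled knockout. The causes were not tested.

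Some genes not called in the main test changed sign. With library-size scaling the log2 folds of Perp, Ei24, Triap1 and Ercc5 were 0.223, 0.217, 0.184 and 0.0219. With upper-quartile factors those of Perp, Ei24 and Triap1 were 0.0333, 0.0343 and 2e-04, and with the 5 CPM filter that of Perp was 0. With 1 library left out, the folds ran from -0.0244 to 0.203 for Mdm4, -0.0231 to 0.131 for Plk3, -0.126 to 0.024 for Perp, -0.0776 to 0.0204 for Ei24 and -0.193 to 0.0263 for Triap1. Eda2r, Pidd1 and Ddb2 could not be tested with the 5 CPM filter. Depth lay between 110770711 and 149520306 counts per library.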
